A study of Homo sapiens with 8 samples.

Results

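EPZ-6438 (tazemetostat) blocks EZH2, the enzyme that places methyl groups on lysine 27 of histone H3 as part of Polycomb repressive complex 2 (PRC2). The effect of this inhibitor alone was read in the line MT-1, which comes from a patient's adult T cell leukaemia (ATL) cells, by setting the array of treated cells (MT-1 EPZ) against that of untreated cells (MT-1 control). All transcript probe sets with a gene symbol were taken, 17709 of 21448, and they stood for 17687 genes. These 2 arrays were part of a set of 8, with 1 array in each group, so every difference below is the size of a difference between single arrays, with no replicate error and no test.

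The MT-1 EPZ cells received 2500 nM EPZ-6438 and the MT-1 control cells received no compound. The MT-1 Comb cells received 2500 nM EPZ-6438 and 500 nM OR21, a DNA demethylating agent, and the MT-1 OR21 cells 500 nM OR21. The MT-2 EPZ cells received 500 nM EPZ-6438 and the MT-2 control cells none. The MT-2 Comb cells received 500 nM EPZ-6438 and 100 nM OR21, and the MT-2 OR21 cells 100 nM OR21. MT-2 is a T cell line that carries HTLV-1, the retrovirus that causes ATL. Exposure lasted 96 h, with compound added at seeding and again at 48 h. Each line is a single cell line, and its response is that of this line.

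PRC2 keeps genes of other lineages and other stages of differentiation silent, and EZH2 is its main catalytic subunit in dividing cells. In ATL cells, EZH2 and the mark it writes have been described as abundant, at genes that normal T cells express among others. An inhibitor of the enzyme acts on the mark and not on the level of PRC2 itself, and loss of the mark can leave a gene silent when other layers, such as DNA methylation, remain.

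Levels are deposited values on a log2 scale (base 2 being that of RMA output), so that a difference of 1 is a 2-fold change. The background of an array was set at the 95th percentile of its negative controls, 7.27 on the MT-1 EPZ array and 7.46 on the MT-1 control array. A gene above it on both arrays has a measured difference; a gene above it on 1 array, at a level that also exceeds the other array's background, has a difference against that background, given as "at least" or "or lower". Other genes have none. Of the 17687 genes, 7714 were measured on both arrays, 238 had such a bound through the MT-1 EPZ array and 95 through the MT-1 control array, which gives 8047 genes that were compared. As a check of the label, 5 of 11 T cell markers were above background on both MT-1 arrays (CD247, CD5, CD7, CD28 and IL2RA). The T cell receptor genes CD3D, CD3E and CD3G and the T cell genes CD2, CD4 and LCK were not above background on either. Of the markers of other cells, 1 of 10 B cell, 1 of 11 myeloid, 2 of 10 NK cell, 1 of 10 erythroid and 3 of 14 epithelial, endothelial and fibroblast genes were above background on the MT-1 EPZ array, against 0, 1, 2, 0 and 1 of them on the MT-1 control array.

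EPZ-6438 alone left the transcriptome of MT-1 cells close to that of untreated cells. The 2 arrays differed by 1 or more in 28 genes that were higher with the inhibitor (0.348% of the 8047 compared) and in 14 that were lower (0.174%). The higher genes included the quiescence factor KLF2, the differentiation repressor PRDM1, the chemokine receptor CXCR4 and the membrane protein EMP2, and the lower ones the chemokine CXCL8 and several genes of mitochondrial proteins. Only PRDM16 and EMP2 were higher by 2 or more, and 0 genes were lower by as much. The 7714 measured differences had a median of -0.05 and an SD of 0.32. In a culture measured in bulk, more cells with a transcript and more transcript per cell cannot be told apart.

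The array's own control probe sets, which name no gene, were compared between the same 2 arrays. Of 2077 positive-control probe sets above background on both arrays, 10 were higher by 1 or more (0.481%) and 17 were lower (0.818%), with an SD of 0.32. None of the 63 ERCC spikes and 31 AFFX controls, taken at any level, differed by as much. Of these, 6 AFFX controls were above background on both arrays, and all or nearly all ERCC spikes were not. They therefore say little about differences at the levels of the genes. The share of genes past 1 was therefore not above that of the positive controls, and the size of a difference on this pair alone does not set a gene apart from them. Of the 612 negative-control probe sets, taken at any level, 33 were higher by 1 or more (5.39%) and 36 were lower (5.88%). Of the 24 above background on both arrays, 3 were higher (12.5%) and 0 were lower. On the lower array of the pair, 19 of the 28 higher genes and 11 of the 14 lower genes stood under 9. For this reason each gene past 1 is given beside a pair of arrays that shares none with this one. In that pair, MT-1 Comb minus MT-1 OR21, the same dose of the inhibitor was added to OR21. Of the other genes only some are given beside it, and the rest have values from 1 pair alone.

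**Figure D1:**
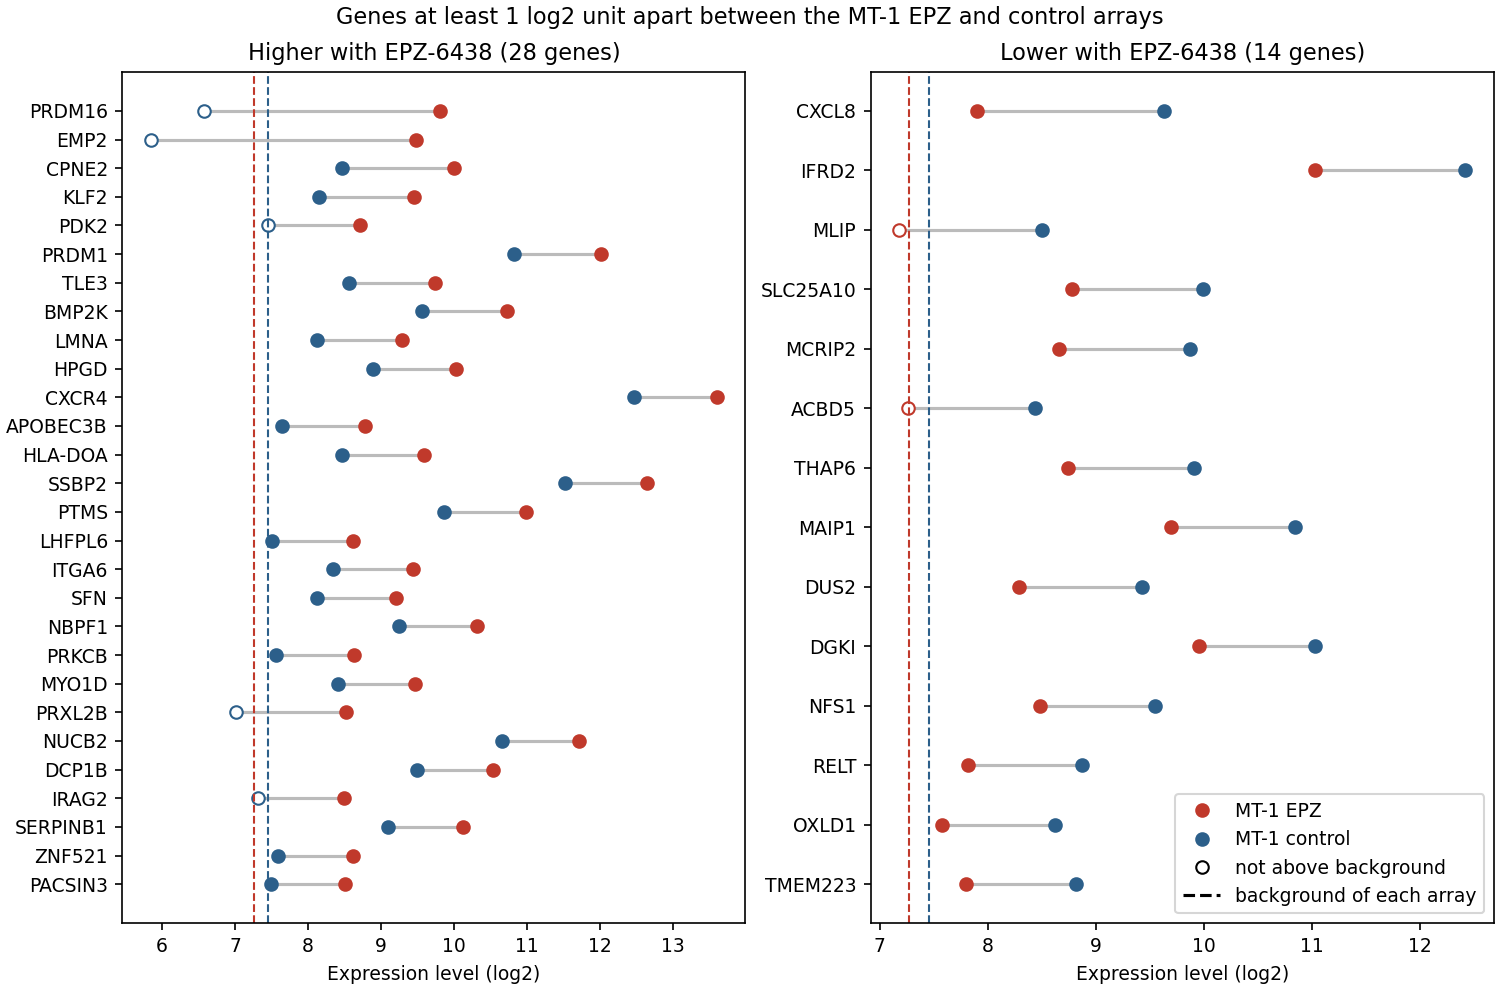
Levels (log2, x axis) of the 28 genes that were higher and the 14 that were lower by 1 or more on the MT-1 EPZ array (red) than on the MT-1 control array (blue), 1 array each. Open points were not above the background of their array, drawn as dashed lines; most points lie within a few units of these lines, while CXCR4, SSBP2, PRDM1 and IFRD2 lie well above them.

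The largest difference was that of PRDM16, a zinc finger regulator of haematopoietic stem cells and brown fat. PRDM16 had a level of 9.81 in MT-1 EPZ cells and 6.57 in MT-1 control cells, which is at least 2.35 above the control array's background. It was not above background in any other array: its levels were 6.92 in MT-1 Comb and 7.04 in MT-1 OR21 cells, and 7.08 in MT-2 EPZ and 7.003 in MT-2 control cells. The MT-1 EPZ array thus stood alone for PRDM16, also against the other MT-1 array with the same dose of the inhibitor.

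EMP2, a tetraspan protein of the plasma membrane, was next. EMP2 had a level of 9.48 in MT-1 EPZ cells and 5.84 in MT-1 control cells, a difference of at least 2.02. In the presence of OR21 it had 11.96 in MT-1 Comb and 8.06 in MT-1 OR21 cells, a difference of 3.90. In MT-2 cells, at 5.50 with EPZ-6438 and 5.35 without, it was not above background. Both MT-1 arrays with the inhibitor were high for EMP2 and both without it lower. With the background set at the 99th percentile of the negative controls, which is 8.68 on the MT-1 control array, the bound in EPZ minus control was 0.79.

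Among transcriptional regulators of lymphocytes, KLF2 and PRDM1 were higher in both pairs. KLF2, which holds T cells in quiescence and drives their recirculation genes, had 9.46 in MT-1 EPZ and 8.15 in MT-1 control cells, a difference of 1.30. It had 11.27 in MT-1 Comb and 9.61 in MT-1 OR21 cells, a difference of 1.67, and was not above background in MT-2 cells. With the 99th percentile as background KLF2 kept only a bound of 0.77 in EPZ minus control, while PRDM1 kept its difference. PRDM1, which encodes the repressor BLIMP1 of terminal lymphocyte differentiation, had 12.02 in MT-1 EPZ and 10.83 in MT-1 control cells (1.19), and 13.28 in MT-1 Comb and 12.10 in MT-1 OR21 cells (1.18). In MT-2 cells PRDM1 stood at 11.71 with EPZ-6438 and 11.61 without, so that the pair that differed by more than 1 in MT-1 differed by 0.09 there. TLE3, a Groucho-type corepressor, had differences of 1.18 in EPZ minus control and 1.45 in Comb minus OR21. ZNF521, a zinc finger cofactor of haematopoietic progenitors, was 1.02 higher with EPZ-6438 alone and 0.14 higher in the presence of OR21. SSBP2, a single-stranded DNA binding cofactor, had 12.65 in MT-1 EPZ and 11.52 in MT-1 control cells, and its difference of 1.12 stood beside 0.34 in the other pair.

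CXCR4, the receptor of the chemokine CXCL12 that directs lymphocytes to bone marrow, was the brightest of the 28. CXCR4 had 13.61 in MT-1 EPZ and 12.48 in MT-1 control cells (1.14), and 14.54 in MT-1 Comb and 13.52 in MT-1 OR21 cells (1.01). In MT-2 cells it stood at 14.78 with EPZ-6438 and 14.54 without. ITGA6, the laminin receptor subunit alpha 6, had 9.44 in MT-1 EPZ and 8.35 in MT-1 control cells (1.09), but 8.77 in MT-1 Comb and 8.80 in MT-1 OR21 cells (-0.03), so its difference was not seen again.

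PRKCB, the protein kinase C isoform beta of antigen receptor signalling, had 8.63 in MT-1 EPZ and 7.56 in MT-1 control cells (1.07), and 9.20 in MT-1 Comb and 7.52 in MT-1 OR21 cells (1.68). PDK2, a kinase that inhibits pyruvate dehydrogenase, had 8.71 in MT-1 EPZ cells and was not above background in MT-1 control cells (at least 1.25), with a difference of 1.51 in Comb minus OR21. HPGD, which degrades prostaglandins, had 10.04 in MT-1 EPZ and 8.90 in MT-1 control cells (1.14), and 10.45 in MT-1 Comb and 9.01 in MT-1 OR21 cells (1.44). SERPINB1, an inhibitor of neutrophil proteases, had 10.13 in MT-1 EPZ and 9.10 in MT-1 control cells (1.03), with 1.83 in the other pair. IRAG2, an endoplasmic reticulum protein of lymphoid cells, was at least 1.03 higher, and 2.22 higher in Comb minus OR21. Each of these genes was higher in both pairs, and the differences of PRKCB, HPGD and SERPINB1 were the larger ones in the presence of OR21.

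Structural and nuclear proteins were also present. LMNA, the gene of the nuclear lamins A and C, had 9.29 in MT-1 EPZ and 8.12 in MT-1 control cells (1.17), and 12.06 in MT-1 Comb and 10.09 in MT-1 OR21 cells (1.97). PTMS, the small acidic nuclear protein parathymosin, had differences of 1.12 and 1.84 in the same order, and MYO1D, an unconventional myosin, 1.06 and 1.17. CPNE2, a calcium-dependent membrane-binding copine, had 10.00 in MT-1 EPZ and 8.47 in MT-1 control cells, the largest difference among the higher genes measured on both arrays (1.54), with 0.63 in the other pair. SFN, the cell cycle regulator 14-3-3 sigma, was higher by 1.09, and by 0.49 in the other pair. APOBEC3B, a cytidine deaminase of single-stranded DNA, was higher by 1.14 and 1.19, and NBPF1 by 1.07 and 1.10; both have near-identical relatives whose transcripts the probes may also bind. Other genes with differences, or for PRXL2B a bound, between 1.01 and 1.17 in EPZ minus control were BMP2K (a kinase of clathrin-mediated uptake; 0.96 in Comb minus OR21), NUCB2 (a calcium-binding protein; 0.87), DCP1B (an mRNA decapping factor; 1.09), PRXL2B (a prostaglandin synthase; 0.63) and PACSIN3 (an endocytosis adaptor; -0.31). HLA-DOA and LHFPL6 are described with the HLA genes and with MT-2 cells.

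Of the 28 genes, 27 could be compared in MT-1 Comb minus MT-1 OR21, and 16 of them were higher by 1 or more there too, against 4.8% of all 8561 genes compared in that pair. Among genes that stood under 9 on the MT-1 control array, as 19 of the 28 did, the share higher by 1 or more in that pair was 10.7%. In the pair with OR21, 25 of the 27 lay above 0, 21 were higher by 0.5 or more (against 14.9% of all genes), and their median was 1.10, beside -0.01 over all genes. The 2 below 0 were ITGA6 and PACSIN3, and the gene that could not be compared was PRDM16. The 28 genes thus include some that were higher with and without OR21, such as EMP2, KLF2, LMNA, PRDM1 and CXCR4, and some that were not, such as ITGA6 and PACSIN3. With the 99th percentile as background, PRDM1 and CXCR4 kept their differences with EPZ-6438 alone. EMP2 and KLF2 then had bounds under 1, and LMNA could not be compared.

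The genes lower with EPZ-6438 were fewer. CXCL8, the neutrophil chemokine interleukin 8, had 7.90 in MT-1 EPZ and 9.63 in MT-1 control cells, a difference of -1.73. In the presence of OR21 the order was the other way round, with 8.95 in MT-1 Comb and 8.53 in MT-1 OR21 cells (0.42). With the 99th percentile as background, the difference of CXCL8 with EPZ-6438 alone was -0.23 or lower, since its level in MT-1 EPZ cells then fell within background. IFRD2, a protein described on inactive ribosomes in rabbit reticulocytes, had 11.02 in MT-1 EPZ and 12.42 in MT-1 control cells (-1.39), and 9.47 in MT-1 Comb and 10.32 in MT-1 OR21 cells (-0.85). It was the only one of the 14 above 11 on the MT-1 EPZ array.

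DGKI, the diacylglycerol kinase iota, which uses up the second messenger diacylglycerol, had 9.96 in MT-1 EPZ and 11.02 in MT-1 control cells (-1.07), and 9.31 in MT-1 Comb and 10.80 in MT-1 OR21 cells (-1.49). DUS2, which modifies uridines of transfer RNA, had 8.29 in MT-1 EPZ and 9.43 in MT-1 control cells (-1.14), and 7.42 in MT-1 Comb and 8.45 in MT-1 OR21 cells (-1.03). These 2 were the genes lower by 1 or more in both pairs, and with the 99th percentile as background DGKI kept its difference and DUS2 had -0.04 or lower.

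Several other lower genes encode proteins of mitochondria or peroxisomes. SLC25A10, the dicarboxylate carrier of the inner mitochondrial membrane, had 8.78 in MT-1 EPZ and 9.99 in MT-1 control cells (-1.21) and a difference of -0.92 in Comb minus OR21; with the 99th percentile as background it had -0.60 or lower. NFS1, the cysteine desulfurase of iron-sulfur clusters, had -1.06 with EPZ-6438 alone and -0.26 in the other pair, and MAIP1, which assists in the assembly of the mitochondrial calcium uniporter, had -1.14 and -0.28. TMEM223, a mitochondrial membrane protein, had -1.02 and was not above background with OR21, and ACBD5, a peroxisomal tether, had -1.17 or lower and -0.46. MLIP, a lamin-interacting protein of muscle, had -1.24 or lower and -0.23 or lower. MCRIP2 had -1.21 and -0.68, RELT, a receptor of the tumour necrosis factor family, -1.06 and -0.51, and THAP6 -1.16 and 0.49. OXLD1 had -1.05 and was not above background in the presence of OR21. The mitochondrial genes were gathered after their values were seen, and the whole set of mitochondrial genes was not counted.

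In MT-1 Comb minus MT-1 OR21, 12 of the 14 lower genes could be compared. There, 2 were lower by 1 or more, against 1.43% of all genes, and 6 were lower by 0.5 or more, against 11.4%. In this pair 10 lay below 0 and the median was -0.48, beside -0.01 over all genes. Just inside the size of 1 stood PACSIN3 (1.01) and TMEM223 (-1.02), and just outside KIF21B (0.99) and REEP2 (-0.99).

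Values in the pairs that share the MT-1 control array are given for reference and not as a repeat. For KLF2 the difference from MT-1 control was 1.45 in MT-1 OR21 and 3.12 in MT-1 Comb cells, for PRDM1 1.27 and 2.45, for LMNA 1.96 and 3.93, and for PRKCB -0.04 and 1.64. For IFRD2 it was -2.10 in MT-1 OR21 and -2.95 in MT-1 Comb cells, and for SLC25A10 -1.66 and -2.58. PRKCB was thus near its control level with OR21 alone, whereas KLF2, PRDM1 and LMNA stood above it.

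**Figure D2:**
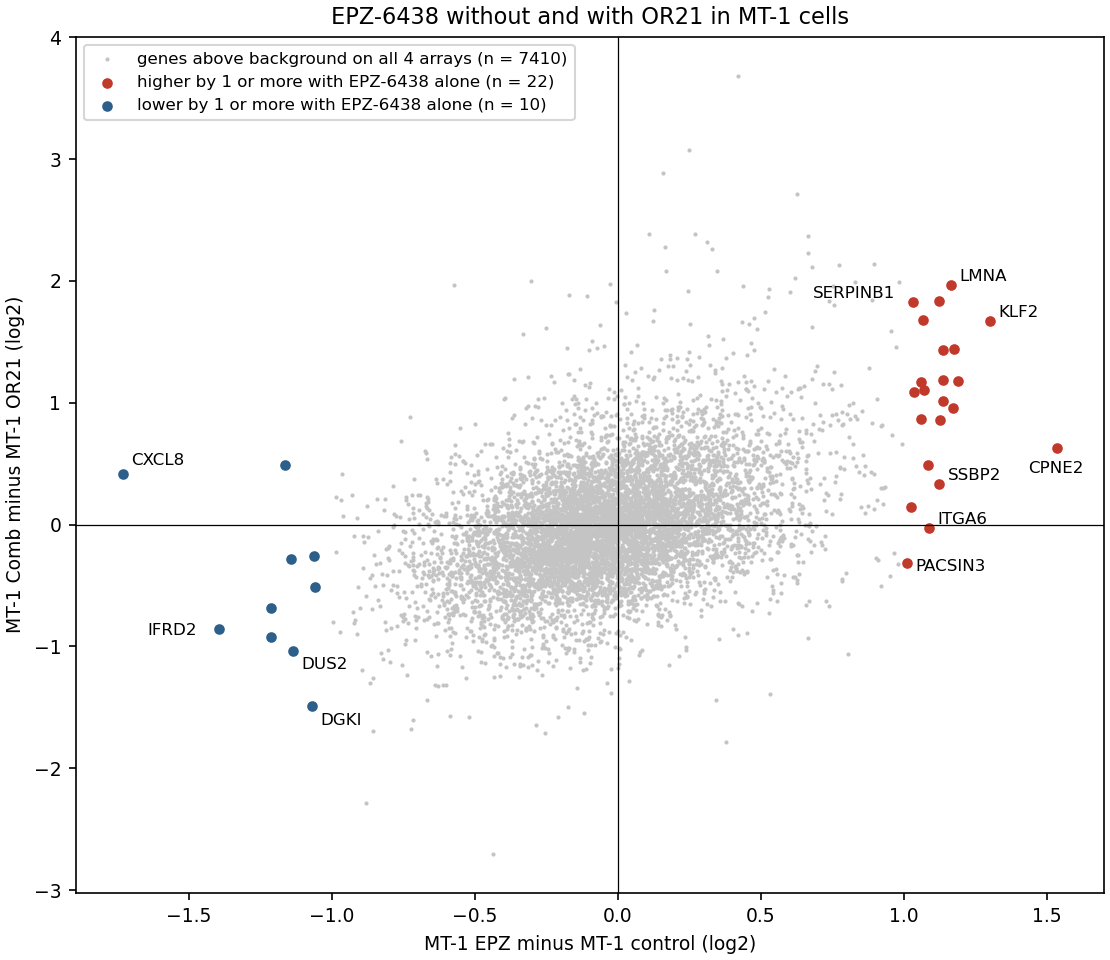
Difference of each gene with EPZ-6438 alone (MT-1 EPZ minus MT-1 control, log2, x axis) against its difference with EPZ-6438 added to OR21 (MT-1 Comb minus MT-1 OR21, log2, y axis), for the 7410 genes above background on all 4 arrays. Of the genes past 1 with the inhibitor alone, the higher (red) lie mostly above 0 on the y axis and the lower (blue) mostly below it, with CXCL8, THAP6, ITGA6 and PACSIN3 on the other side.

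With a size of 0.5 (a 1.41-fold change), chosen after the values were seen, 402 genes were higher on the MT-1 EPZ array than on the MT-1 control array (5.0%) and 553 were lower (6.87%). Of the 402, 395 could be compared in Comb minus OR21 and 182 of these were higher by 0.5 or more there (46.1%, against 14.9% of all genes), while 16 were lower by as much. Of the 553, 522 could be compared and 178 were lower by 0.5 or more (34.1%, against 11.4% of all genes), while 18 were higher. Across the 7410 genes measured on all 4 arrays, the differences of the 2 pairs correlated with r = 0.41 (Spearman's rho 0.39); the points share the arrays' scaling, and genes are not independent replicates. Genes between 0.25 and 0.5 in EPZ minus control had a median of 0.19 in Comb minus OR21, those between 0.5 and 1 had 0.38, and the 22 measured at 1 or more had 1.09. On the other side, genes between -0.5 and -0.25 had a median of -0.23, those between -1 and -0.5 had -0.35, and the 10 under -1 had -0.60.

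**Figure D3:**
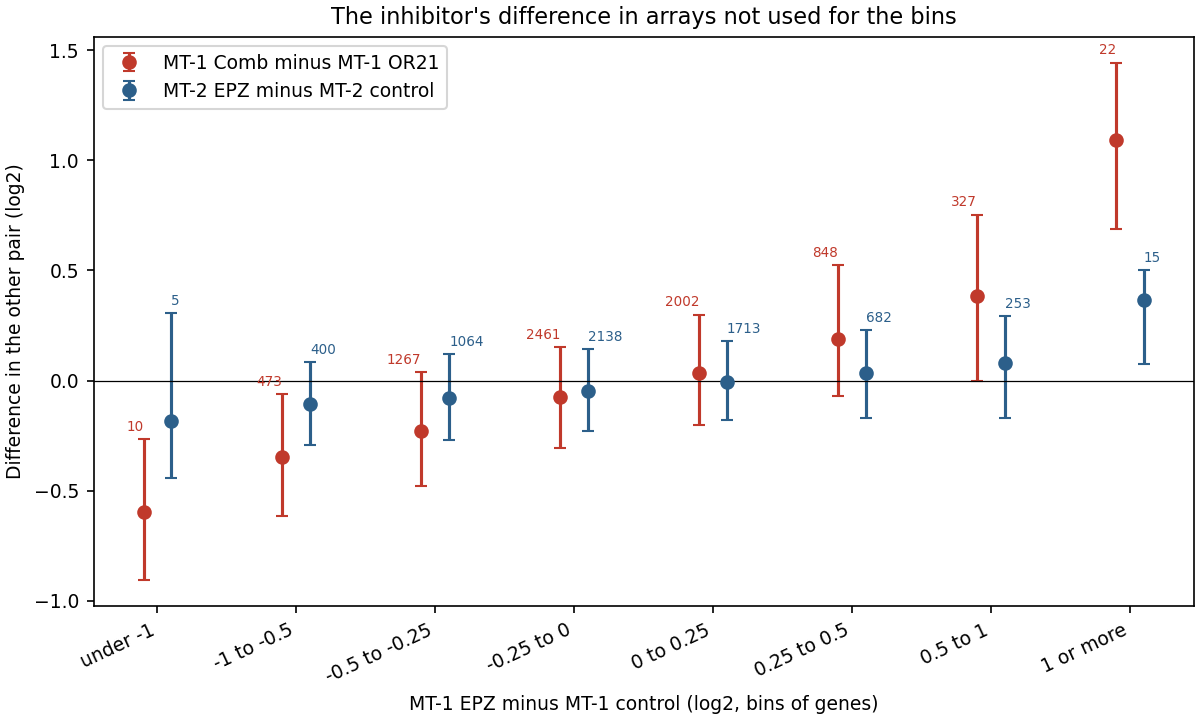
Median difference (log2, y axis; bars span the middle 50% of genes and the numbers count them) in MT-1 Comb minus MT-1 OR21 (red) and MT-2 EPZ minus MT-2 control (blue), for genes binned by their difference in MT-1 EPZ minus MT-1 control (x axis). The red medians run between -0.60 in the lowest bin and 1.09 in the highest, and the blue medians between -0.19 and 0.37; the outermost bins hold 22 genes or fewer.

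The HLA class II genes, which present antigen to helper T cells and are expressed by activated human T cells, were higher in part. Of 16 genes of this pathway on the array, 14 could be compared with EPZ-6438 alone. There, 7 were higher by 0.5 or more (against 5.0% of all genes), HLA-DOA by 1 or more, and 0 were lower by 0.5 or more, with a median of 0.51 beside -0.05 over all genes. In MT-1 Comb minus MT-1 OR21, 8 of 13 were higher by 0.5 or more (against 14.9% of all genes) and 0 were lower by as much, with a median of 0.59 beside -0.01. HLA-DOB and HLA-DRB5 were not above background on either MT-1 array.

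CIITA, the transactivator that switches class II genes on, had 13.63 in MT-1 EPZ and 12.79 in MT-1 control cells (0.83), and 12.62 in MT-1 Comb and 12.14 in MT-1 OR21 cells (0.48). Of the RFX subunits that bind class II promoters, RFX5 had a difference just under the size of 0.5 in EPZ minus control (0.499), RFXANK -0.21 and RFXAP at least 0.02. Among the chains that bind peptide, HLA-DPB1 had 14.94 in MT-1 EPZ and 14.10 in MT-1 control cells (0.84), and 14.25 in MT-1 Comb and 13.39 in MT-1 OR21 cells (0.86). HLA-DRB1 had 13.53 in MT-1 EPZ and 12.87 in MT-1 control cells (0.66), and 13.50 in MT-1 Comb and 12.72 in MT-1 OR21 cells (0.77). HLA-DQB1 had 8.63 in MT-1 EPZ and 7.95 in MT-1 control cells (0.68), and at least 0.30 in the other pair. The alpha chains differed less: HLA-DRA by 0.33, HLA-DQA1 by 0.26 and HLA-DPA1 by 0.25, with 0.38, 0.85 and 0.59 in the other pair. The probes of these polymorphic, closely related genes may bind each other's transcripts.

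Of the proteins that load peptide, HLA-DOA, a modulator of loading, had 9.59 in MT-1 EPZ and 8.46 in MT-1 control cells (1.13), and 9.02 in MT-1 Comb and 8.17 in MT-1 OR21 cells (0.85). HLA-DMA, which exchanges peptides, had 13.84 in MT-1 EPZ and 13.05 in MT-1 control cells (0.79), and 13.40 in MT-1 Comb and 12.47 in MT-1 OR21 cells (0.93). The invariant chain CD74 had differences of 0.32 and 0.54, and CTSS, the protease that trims it, at least 0.52 and 1.31. In MT-2 cells the list had a median of 0.16, with -0.31 for CIITA, -0.13 for HLA-DPB1, -0.04 for HLA-DMA and 0.69 for HLA-DRB1. In MT-2 Comb minus MT-2 OR21, HLA-DPB1 had 1.11, HLA-DMA 0.48 and HLA-DRB1 0.70, and CIITA was not compared. Class I genes, listed for comparison, had a median of 0.04 in MT-1 EPZ minus control, with ERAP2 (0.60) as the 1 of 15 at 0.5 or more (against 5.0% of all genes).

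**Figure D4:**
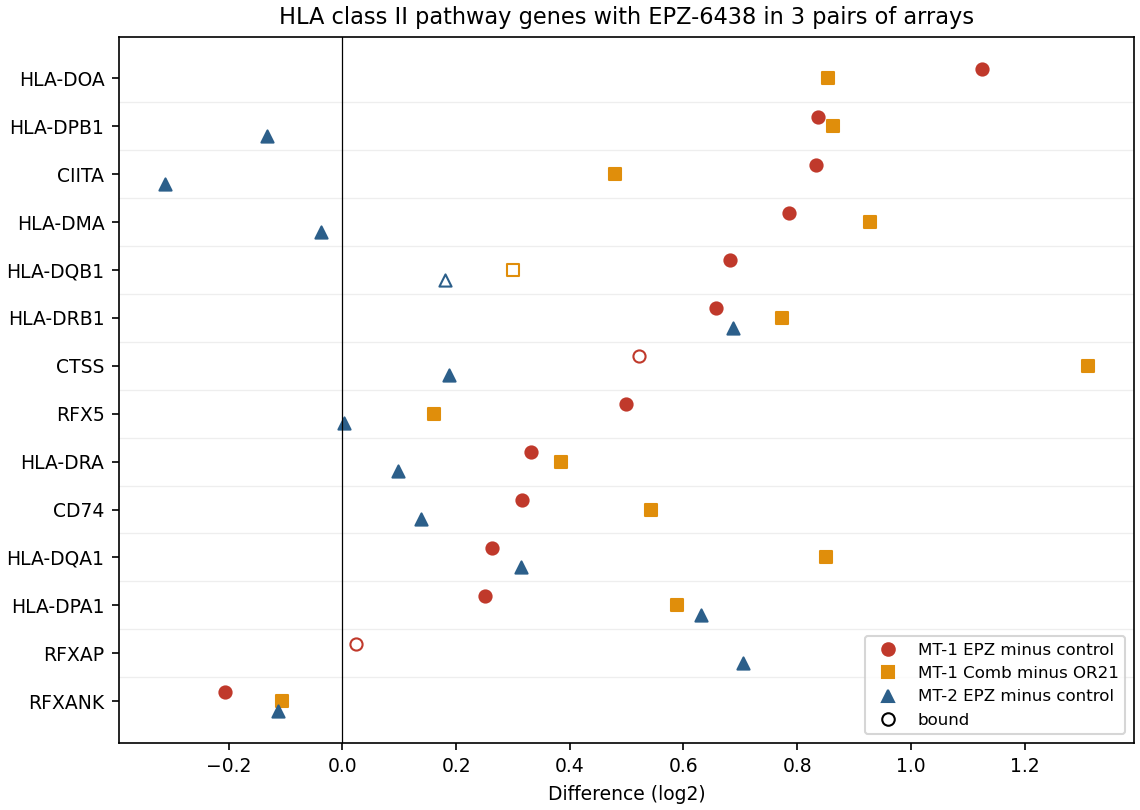
Differences (log2, x axis) of the 14 HLA class II pathway genes that could be compared, in MT-1 EPZ minus MT-1 control (circles), MT-1 Comb minus MT-1 OR21 (squares) and MT-2 EPZ minus MT-2 control (triangles), 1 array a side. Open symbols are bounds; circles and squares lie above 0 for all genes drawn except RFXANK, while triangles lie on both sides.

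Class II promoters share a Y box, an inverted CCAAT element read as ATTGG on the coding strand, which the factor NF-Y binds beside the RFX site. To show this element, the promoters of the 5 HLA genes of the list that were higher by 0.5 or more with EPZ-6438 alone are shown. Each line gives bases -120 to -21 from the start of the gene (RefSeq, GRCh38.p14), 5′ to 3′ on the gene's strand, with ATTGG and CCAAT in capitals.
HLA-DOA: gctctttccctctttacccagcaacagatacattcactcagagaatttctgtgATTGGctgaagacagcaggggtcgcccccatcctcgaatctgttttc
HLA-DPB1: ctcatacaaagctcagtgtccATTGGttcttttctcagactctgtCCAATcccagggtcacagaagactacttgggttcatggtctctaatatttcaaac
HLA-DMA: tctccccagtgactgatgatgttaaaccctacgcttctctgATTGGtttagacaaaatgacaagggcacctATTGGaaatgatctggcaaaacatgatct
HLA-DQB1: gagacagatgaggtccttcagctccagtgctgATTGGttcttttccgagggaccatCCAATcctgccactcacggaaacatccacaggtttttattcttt
HLA-DRB1: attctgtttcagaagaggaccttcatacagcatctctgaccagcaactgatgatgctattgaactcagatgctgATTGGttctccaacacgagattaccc
They lie at chr6:33009612-33009711, chr6:33075870-33075969, chr6:32953118-32953217, chr6:32666678-32666777 and chr6:32589869-32589968, of which HLA-DPB1 is on the plus strand and the others on the minus strand. ATTGG begins at base -67 in HLA-DOA, -99 in HLA-DPB1, -79 in HLA-DMA, -88 in HLA-DQB1 and -46 in HLA-DRB1. Of 11 compared list genes with a promoter sequence (250 bases before to 50 after the start), 8 held ATTGG or CCAAT, which are the same motif on the 2 strands, against 35.7% of 27305 promoters. A match is a run of letters and not a bound site. The share is a property of the list, which was chosen as class II genes, and its relation to the inhibitor was not tested.

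PRC2 is known to occupy promoters rich in CpG. The promoters of KLF2 and EMP2, which led the genes higher by 1 or more in both MT-1 pairs by the smaller of their differences, are shown with each CG in capitals, from base -120 to -1 (RefSeq, GRCh38.p14).
KLF2: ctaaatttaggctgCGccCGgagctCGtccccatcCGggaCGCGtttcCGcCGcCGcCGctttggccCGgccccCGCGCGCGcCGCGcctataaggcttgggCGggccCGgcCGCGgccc
EMP2: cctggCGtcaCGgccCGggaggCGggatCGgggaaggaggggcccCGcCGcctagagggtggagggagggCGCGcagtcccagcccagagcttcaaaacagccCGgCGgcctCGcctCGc
They lie at chr19:16324706-16324825 on the plus strand and chr16:10580599-10580718 on the minus strand. KLF2 held 49 CG in its 300 bases and EMP2 33, against a median of 14 and an upper quartile of 28 over the 27305 promoters. Of these promoters, 98.4% held fewer than KLF2 and 83.1% fewer than EMP2. The 27305 promoters are not limited to the genes compared here, and binding by PRC2 was not tested. The CpG content of the 28 higher genes as a set was not compared, since 21 of them (75.0%) had a promoter sequence and 80% were required.

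The machinery that the inhibitor acts on differed little in level. Of 15 PRC2 subunits and H3K27 demethylases on the array, 11 could be compared, with a median of 0.11. EZH2 itself had 13.42 in MT-1 EPZ and 13.18 in MT-1 control cells (0.23), and 13.49 in MT-1 Comb and 13.51 in MT-1 OR21 cells (-0.02). EZH1, the second catalytic subunit, found in resting cells, had 8.83 in MT-1 EPZ and 8.18 in MT-1 control cells (0.66), and 9.40 in MT-1 Comb and 8.88 in MT-1 OR21 cells (0.52). EZH1 was the 1 gene of the 11 compared at 0.5 or more in EPZ minus control (against 5.0% of all genes). Of the other core subunits, SUZ12 had a difference of 0.11, RBBP4 of 0.10 and RBBP7 of -0.12, and of the accessory subunits PHF19 had 0.20, AEBP2 0.15, MTF2 -0.10, LCOR 0.48 and JARID2 at least 0.01. The demethylase KDM6A had 0.06. PRC1, a Polycomb complex of which some forms read the mark, had 14 of 16 genes compared with a median of 0.05. Of these, 0 were higher by 0.5 or more, and PCGF3 (-0.73) and PCGF1 (-0.51) were lower by as much (against 6.87% of all genes).

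Most of the listed genes that Polycomb silences in other lineages were not above background. Of 36 developmental regulators on the array, 29 could not be compared and 27 of these were above background on neither MT-1 array, as were 21 of 23 HOX genes. Of the 7 regulators that could be compared, PRDM16 has been described, EPAS1, the hypoxia factor HIF-2 alpha, had 8.59 in MT-1 EPZ and 7.62 in MT-1 control cells (0.97), and TBX3 had a difference of 0.56. EPAS1 was 1.45 higher in Comb minus OR21 and 0.89 higher in MT-2 EPZ minus MT-2 control, so that all of the 3 pairs ran the same way. MEIS2 (-0.42) and DLX2 (-0.14) lay below 0. Of 20 genes reported silenced in T cell leukaemia, 8 could be compared, and KLF2 and PRDM1 were the 2 at 0.5 or more (against 5.0% of all genes). The cell cycle inhibitors CDKN2A (-0.11), CDKN1B (-0.01) and CDKN1C (-0.39 or lower) were not at 0.5 or more. In Comb minus OR21 these had 1.14, 0.53 and -0.11, in the same order.

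Among lists of T cell genes, quiescence and trafficking genes had 12 of 19 compared, with a median of 0.28 and 3 at 1 or more (KLF2, CXCR4 and ITGA6, against 0.348% of all genes), while the chromatin organiser SATB1 had -0.55. Like the other gene lists, this list was chosen with earlier results of these data known, and its share was not tested. In Comb minus OR21 the same list had 9 of 15 at 0.5 or more, against 14.9% of all genes, while ITGA6 had -0.03. Lymphocyte differentiation regulators had a median of 0.29 over 17 genes. ID2, an inhibitor of basic helix-loop-helix factors, had 9.09 in MT-1 EPZ and 8.20 in MT-1 control cells (0.89), with 1.84 in the other pair, and the aryl hydrocarbon receptor AHR had 0.53 and 1.93. T cell identity and receptor genes had a median of -0.26 over 11 genes, with CD5 (-0.59) as the 1 at -0.5 or lower (against 6.87% of all genes) and the kinase FYN (0.43) as the highest. In Comb minus OR21 this list lay on the other side, with a median of 0.20 and 7 of 11 genes above 0, while CD5 had -0.32.

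Annexins and S100 proteins, calcium-dependent proteins of membranes, had a median of 0.52 over 6 of 16 genes, 4 of them at 0.5 or more (against 5.0% of all genes). ANXA5 had 14.94 in MT-1 EPZ and 14.15 in MT-1 control cells (0.79), with 0.46 in the other pair, and ANXA2 had 0.56 and 0.68. S100A10, the partner of ANXA2, had 7.99 in MT-1 EPZ and 4.28 in MT-1 control cells, at least 0.53, and 12.25 in MT-1 Comb and 6.84 in MT-1 OR21 cells, at least 4.96. IL2RB, the beta chain of the interleukin 2 receptor, was similar, with at least 0.58 for EPZ-6438 alone and 4.49 in Comb minus OR21. For both genes the inhibitor alone left the level just above background, and the level with both compounds stood above 12.

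Other signalling lists differed in size. TGF-beta, BMP, WNT and Notch genes had a median of 0.34 over 14 of 29 genes and 5 at 0.5 or more (against 5.0% of all genes), led by the Notch target HEY1 (0.67, with 2.37 in the other pair), while WNT5B had -0.68. ERK feedback genes had a median of 0.22 over 10 of 24 genes. PHLDA1, a target of ERK signalling, had 8.74 in MT-1 EPZ and 8.07 in MT-1 control cells (0.67) and 2.23 in the other pair. SPRED2 (0.36), SPRY2 (0.31), DUSP10 (0.26), DUSP4 (0.25), ETV4 (0.20), SPRED1 (0.03), EGR1 (-0.14), JUNB (-0.28) and DUSP2 (-0.42) lay within 0.5 of 0. Of NF-kappaB genes, TNFAIP3 (0.93) and CFLAR (0.65) were the 2 of 16 at 0.5 or more (against 5.0% of all genes), and 1 was at -0.5 or lower (against 6.87%). Adhesion and matrix genes had a median of 0.18 over 13 of 30 genes, with EMP2, MYO1D and the syndecan SDC3 (0.98, and 1.99 in the other pair) at the top and the tetraspanin CD151 (-0.88 and -0.59) at the bottom. Of 35 cytokine and chemokine genes, 29 were not above background on either array. CXCL10, an interferon-induced chemokine, had 12.08 in MT-1 EPZ and 11.33 in MT-1 control cells (0.75), and 13.33 in MT-1 Comb and 11.37 in MT-1 OR21 cells (1.96).

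Lists tied to growth and to viral mimicry showed little. Proliferation genes had a median of 0.06 over 25 genes, with CENPA (0.57) and BIRC5 (-0.51) at the ends, and cyclins and cell cycle inhibitors a median of 0.00 over 22. In Comb minus OR21, CENPA had -0.04 and BIRC5 -0.08. Of 7 interferon-stimulated genes that could be compared, 0 were at 0.5 or more (against 5.0% of all genes), and 20 were not above background on either array. Of 8 cancer-testis genes that could be compared, 0 were at 0.5 or more with EPZ-6438 alone (against 5.0% of all genes), and 12 of 23 were in Comb minus OR21 (against 14.9%); the numbers compared differ because more of these genes were above background with OR21. Medians were 0.09 for p53 targets, 0.09 for the BCL2 family, where the death promoter BAD had -0.98, and -0.05 for stress response genes. In Comb minus OR21 the 3 medians were 0.40, 0.35 and -0.32, and BAD had -0.225. Ribosome biogenesis and MYC target genes had a median of -0.17 over 14 genes, and of -0.47 in the other pair. Of the 14, 0 were at 0.5 or more and 3 at -0.5 or lower (against 6.87% of all genes). The 3 were IFRD2, the polymerase subunit POLR1B at -0.64 and NOP16 at -0.55. Sterol and fatty acid genes had a median of 0.17 over 23 genes. Of these, 4 were at 0.5 or more (against 5.0% of all genes) and 0 at -0.5 or lower (against 6.87%). The desaturase SCD had 0.86, HMGCS1 0.72, the factor SREBF1 0.62 and CYP51A1 -0.14. In Comb minus OR21 the sterol list had a median of -0.21, with 8 of 23 above 0. The 11 reference genes had a median of -0.12, with GUSB (-0.58) and PGK1 (-0.63) past 0.5, so that differences of this size also occurred among genes used as constant.

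**Figure D5:**
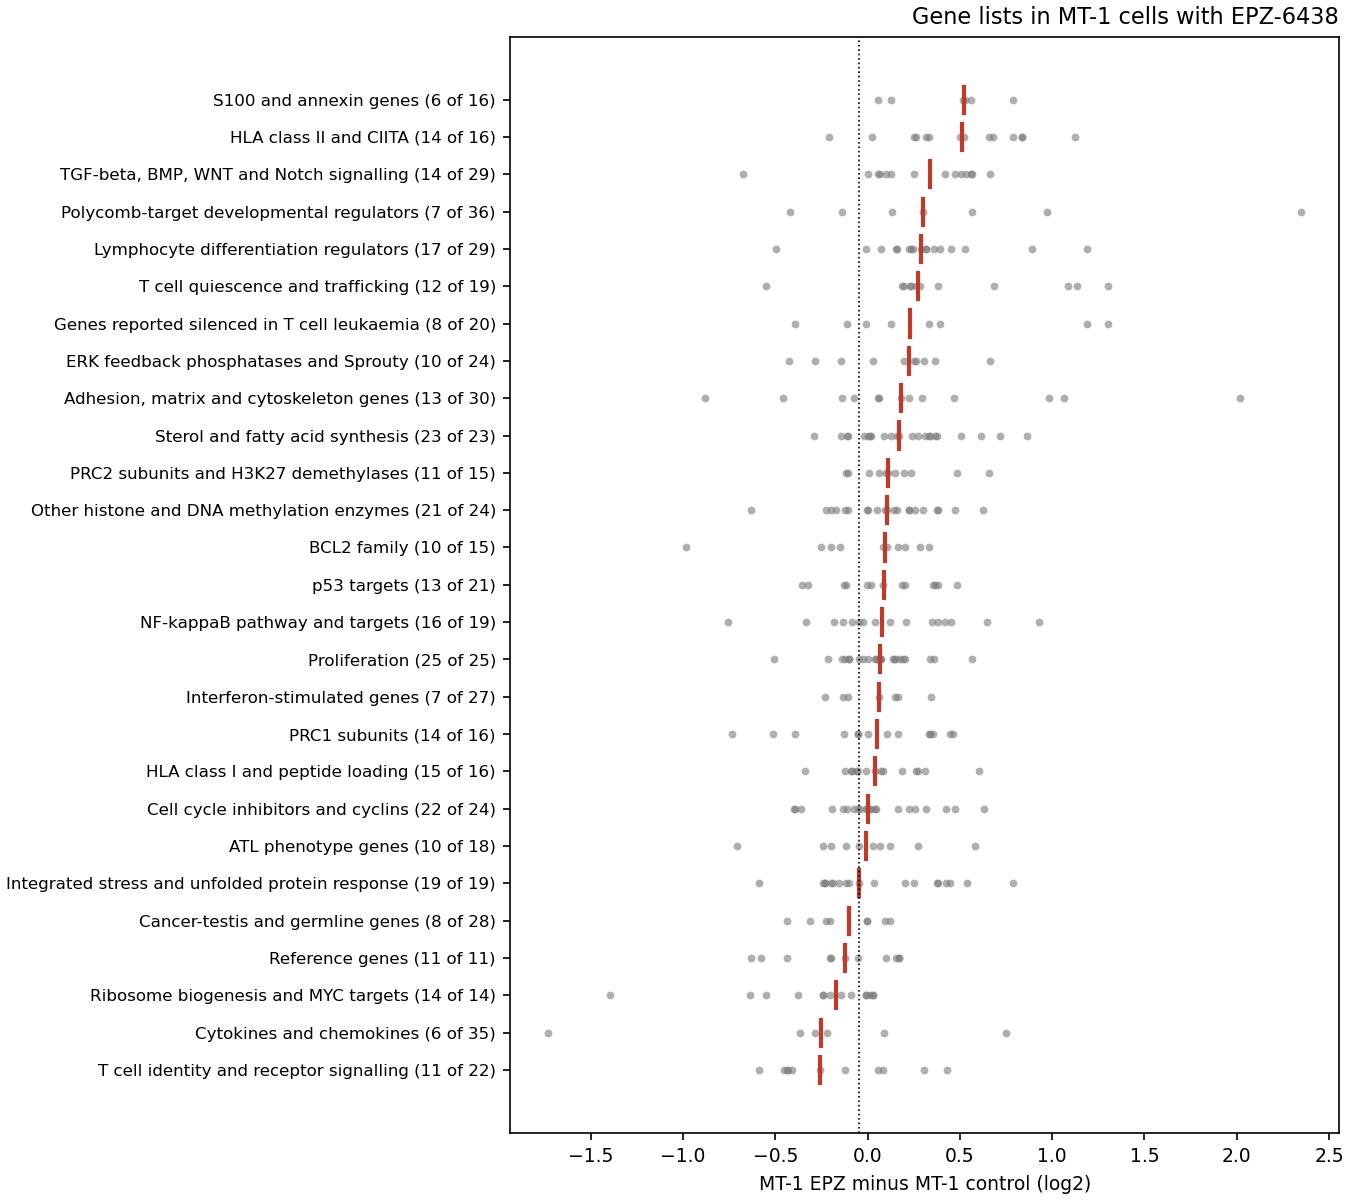
Differences in MT-1 EPZ minus MT-1 control (log2, x axis) of each gene that could be compared (grey points), by gene list, with the median of the list (red bar) and of all genes (dotted line, -0.05). The number compared and the number on the array stand beside each name; the medians lie between -0.26 and 0.52, with S100 and annexin genes and HLA class II genes at the top.

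In MT-2 cells, which received 500 nM and not 2500 nM, few of the MT-1 genes were seen again. There, 32 of 7315 genes were higher by 1 or more with EPZ-6438 (0.437%) and 10 were lower (0.137%). Of the 28 genes that were higher in MT-1, 17 could be compared in MT-2; 2 were higher by 1 or more, 13 lay above 0 and the median was 0.24, beside -0.02 over all genes. The 2 were HPGD, with 10.19 in MT-2 EPZ and 9.10 in MT-2 control cells (1.09), and LHFPL6, a tetraspan membrane protein, with 10.56 in MT-2 EPZ and 9.25 in MT-2 control cells (1.32). LHFPL6 had 8.61 in MT-1 EPZ and 7.50 in MT-1 control cells (1.11), and at least 0.20 in Comb minus OR21. HPGD was thus higher by 1 or more in all of the 3 pairs.

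Of the 14 genes lower in MT-1, 6 could be compared in MT-2 and 0 were lower by 1 or more, with a median of -0.19. NFS1 had 7.71 in MT-2 EPZ and 8.50 in MT-2 control cells (-0.79). Beyond these, HIVEP2 (0.86 in MT-1 cells and 0.80 in MT-2 cells), the kinase ROCK2 (0.76 and 0.94), EPAS1 and CCDC92 (at least 0.70 and 0.76) had the largest shared differences above 0, and PGAM5 (-0.86 and -0.63), KLHL18 (-0.83 and -0.64), UMPS of pyrimidine synthesis (-0.60 and -0.66), the autophagy protease ATG4B (-0.63 and -0.61) and ANXA9 (-0.75 and -0.60) the largest below 0. The distance between the lines was ranked among genes above background on all 4 arrays of the pairs with EPZ-6438 alone. Among these genes, the lines stood furthest apart for CPNE2 (1.54 in MT-1 cells and 0.17 in MT-2 cells), FRS3 (0.97 and -0.51), ATP8A1 (0.68 and -0.79), SURF6 (0.67 and -0.73) and APOBEC3B (1.14 and -0.24) on one side. On the other side were IFRD2 (-1.39 and 0.60), ODF2L (-0.15 and 1.66), the G protein regulator RGS2 (-0.13 and 1.58), the carbonic anhydrase CA2 (-0.77 and 0.81) and COMMD9 (-0.79 and 0.75). PDK2 (at least 1.25 in MT-1 cells and -0.49 in MT-2 cells) was not ranked, since it was not above background in MT-1 control cells. Across 6270 genes measured on these 4 arrays the differences correlated with r = 0.16 (rho 0.15). Line and dose cannot be told apart in this comparison.

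The other MT-2 pair, MT-2 Comb minus MT-2 OR21, did not follow this for each gene. There APOBEC3B (0.67) and ATP8A1 (0.04) had the opposite sign to that of the MT-2 pair without OR21. CPNE2 (1.18), ODF2L (0.30) and RGS2 (0.41) had the sign of that pair but differed from it in size. FRS3 (-0.58), SURF6 (-0.99), IFRD2 (0.62), CA2 (0.63) and COMMD9 (1.16) also had its sign. In MT-2 Comb minus MT-2 OR21, a pair added after the values were seen, 1.9% of 7667 genes were higher by 1 or more and 0.287% were lower. Of the 28 genes that were higher in MT-1, 20 could be compared in it, 4 were higher by 1 or more, 17 lay above 0 and the median was 0.45, beside 0.09 over all genes. The 4 were LHFPL6 (1.44), PDK2 (1.29), CPNE2 (1.18) and BMP2K (1.01). In MT-2 EPZ minus MT-2 control, LHFPL6 had 1.32, PDK2 -0.49, CPNE2 0.17 and BMP2K 0.50. Of the 14 lower genes, 7 could be compared and 0 were lower by 1 or more, with a median of -0.19. HPGD had 0.98 there.

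After DUS2, DGKI and SLC25A10, the lowest genes by the smaller of the differences in both MT-1 pairs were ALG14 (-0.97 and -0.88), the integrin activator FERMT3 (-0.91 and -0.90), the Notch target HEY2 (-0.90 and -1.19), CBLN2 (-0.88 and -2.29) and IVD of leucine breakdown (-0.87 and -1.30), each value for EPZ minus control first and Comb minus OR21 second. HEY1 and HEY2, related targets of Notch, thus stood on opposite sides of 0 in both pairs.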

How the data were processed

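Total RNA of 8 cultures was hybridised to 8 1-colour arrays, 1 per group, and 2 of them, MT-1 EPZ and MT-1 control, are the subject here. The values are log2 levels as deposited, made by the authors with RMA, which corrects background, scales the arrays to each other and sums up the probes, per the submitters' processing notes. No version of RMA was given in the sources used here. The log base is taken from RMA. Arrays have no read depth; precision is limited by their number. Gene symbols came from the platform annotation, and for 20 genes with several probe sets the one with the highest mean over the 8 arrays was used. Differences were computed as described with Python 3.11.15 and pandas 2.3.3; the steps were tested on simulated data. There was no test. Alternatives were centring the arrays, cyclic loess (limma 3.58.1, R 4.3.3), other background rules and other sizes.

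The members and gene lists were chosen with earlier results of these data known. Named genes were the 15 highest and 10 lowest in EPZ minus control, the 12 highest and 8 lowest by the smaller difference of both MT-1 pairs, 6 and 6 by that of both lines, 5 and 5 by the difference between the lines, all compared members of the PRC2, HLA class II and ERK lists, and the 3 highest and 2 lowest of other lists. A further 11 genes past 1, and single list members in both directions, were named after their values were seen, so that all past 1 are accounted for.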

Additional observations from a re-analysis of the deposited data

Results flagged for a closer look

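For 12 named genes, EPZ-6438 gave differences of at least 0.5 in opposite directions in 2 pairs of arrays. FRS3, ATP8A1, SURF6, IFRD2, CA2 and COMMD9 were among the genes named for standing furthest apart between the lines, a choice that favours opposite directions. The share of all genes with such opposite differences was not counted. With 1 array a side the difference between the pairs was not tested, and MT-2 cells received 500 nM against 2500 nM in MT-1 cells. Higher in MT-1 EPZ than in MT-1 control cells and lower in MT-2 EPZ than in MT-2 control cells were FRS3 (0.97 and -0.51), HMGCS1 (0.72 and -0.58), ATP8A1 (0.68 and -0.79) and SURF6 (0.67 and -0.73). The reverse held for IFRD2 (-1.39 and 0.60), COMMD9 (-0.79 and 0.75), CA2 (-0.77 and 0.81), NFKBIE (-0.75 and 0.53), CD5 (-0.59 and 0.79), SATB1 (-0.55 and 0.84) and PCGF1 (-0.51 and 0.58). Within MT-1 cells, ASNS was higher with EPZ-6438 alone (0.54) and lower in MT-1 Comb than in MT-1 OR21 cells (-0.51). In MT-2 Comb minus MT-2 OR21, ATP8A1 had 0.04, while the other 10 genes with opposite directions between the lines had the sign of MT-2 EPZ minus MT-2 control.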

How the results depend on the processing

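With 1 array a side, no difference has a replicate error, and direction and size are all that can be compared between settings. Of the 28 higher and 14 lower genes, 23 and 12 were above background on both arrays. Centring each array left 20 and 22 genes (20 of the 28 and all 14 among them), and cyclic loess 30 and 14 (23 and 13 among them). With background at the 99th percentile, 13 genes were higher and 3 lower. Of the others, 10 higher genes (APOBEC3B, IRAG2, LHFPL6, LMNA, PACSIN3, PDK2, PRKCB, PRXL2B, SFN and ZNF521) and 5 lower genes (ACBD5, MLIP, OXLD1, RELT and TMEM223) could not be compared. EMP2 (0.79), KLF2 (0.77), HLA-DOA (0.90), ITGA6 (0.75), MYO1D (0.79), CXCL8 (-0.23), DUS2 (-0.04), MCRIP2 (-0.48), NFS1 (-0.15), SLC25A10 (-0.60) and THAP6 (-0.52) came under 1 as bounds. Counts were 132 and 33 with no background rule; with a size of 1.5, 3 and 1; with a size of 0.5, chosen after the values were seen, 402 and 553. The number also higher in MT-1 Comb minus MT-1 OR21 was 16, and became 5 with background at the 99th percentile, 71 with no background rule, 182 with a size of 0.5 and 1 with a size of 1.5. The number also lower was 2, and became 1 with background at the 99th percentile or cyclic loess, 178 with a size of 0.5 and 0 with a size of 1.5. The number also higher in MT-2 was 2, and became 0 with background at the 99th percentile or a size of 1.5, 1 with cyclic loess, 6 with no background rule and 42 with a size of 0.5; the number also lower was 0, and 23 with a size of 0.5. With MT-2 Comb minus MT-2 OR21 as the MT-2 pair, chosen after the values were seen, 4 were also higher and 0 also lower. The cause was not tested where a count moved under a scaling; the other settings admit fewer or more genes by construction. Under centring and cyclic loess all 42 genes moved by less than the SD of the positive controls, as did all 27 list medians; with no background rule the T cell identity median became 0.07. Scaling moved the median of measured genes by -0.07 and 0.04. The promoter comparison at a size of 1.5 was not run, since too few promoters had a sequence.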
